A study of Mus musculus with 6 samples.

Results

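The inflammasome is a protein assembly of the cytosol that starts with a sensor and ends with the protease caspase-1. The genes described here are the sensors Nlrp3, Nlrp6, Nlrc4, Naip1, Naip2, Naip5, Naip6 and Aim2, the adaptor Pycard and the protease Casp1. They were chosen by name for their place in the pathway, and all 10 of 10 names were found among the 36977 genes of the deposited table. The table covers 6 bulk RNA-seq libraries of mouse colonic tissue, 3 labelled DSS and 3 labelled DSS and DCA. Dextran sodium sulfate (DSS) injures the colonic epithelium, and deoxycholic acid (DCA) is a secondary bile acid made by gut bacteria. The genotype label is WT in both groups, and a single protocol label for all samples gives 2% DSS for 7 days, then a DCA enema. The treatment label sets the groups apart, and the sources used here do not give the strain, the sex, the age or what the DSS mice had instead of DCA. No label ties a library to its own mouse, so the p-values reflect only how much these libraries scatter, and some of that scatter may be technical.

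As background, NAIP proteins bind bacterial ligands directly and then recruit NLRC4. Mouse NAIP1 and NAIP2 recognise the needle and the inner rod of type III secretion systems, and NAIP5 and NAIP6 recognise flagellin. AIM2 binds double-stranded DNA in the cytosol, NLRP3 responds to potassium efflux and other signs of cell damage, and NLRP6 is a sensor best known from intestinal epithelium. PYCARD, also called ASC, polymerises into a speck that gathers caspase-1, which then cleaves the precursors of IL-1β and IL-18 and the pore protein gasdermin D. In the gut, NAIP and NLRC4 act in epithelial cells, where they drive the expulsion of infected cells.

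The 4 Naip genes lie side by side on the minus strand of chromosome 13, and their likeness bears on how far their values can be told apart. By GENCODE M21, on GRCm38, Naip2 spans 100144063 to 100202092, Naip5 100211739 to 100246323, Naip6 100281121 to 100317674 and Naip1 100407764 to 100452869. Positions were found by matching gene identifiers, since the sources used here do not name the authors' build. Naip5 and Naip6 share an unbroken coding run of 229 bases, in exon 9 of each gene. It is longer than one 150-base read and is shown whole, as the coding strand of Naip5 (chr13:100222161-100222389, minus strand), because a read inside it does not say which gene it came from.
Naip5 and Naip6: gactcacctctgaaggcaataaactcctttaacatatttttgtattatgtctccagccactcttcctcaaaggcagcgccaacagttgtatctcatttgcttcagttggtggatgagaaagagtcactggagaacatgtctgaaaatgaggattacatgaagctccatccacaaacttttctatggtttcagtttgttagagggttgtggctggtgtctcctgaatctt

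Over whole transcripts, 36.9% of the 50-base windows of Naip5 also occur in a transcript of another gene, against 31.8% for Naip1, 21.5% for Naip6 and 19.1% for Naip2. With 150-base windows the shares were 8.25% for Naip5, 5.1% for Naip1, 1.89% for Naip6 and 0.537% for Naip2. The partners were other Naip genes and the pseudogenes Naip3 and Naip3-ps1. The sources used here do not say how the authors' counting treated such reads, so the split of signal within the family is uncertain. Casp1, Nlrp3 and Nlrp6 had no 50-base window in common with another gene. For Pycard, 11.7% of 50-base windows were shared, nearly all with Gm45205, a gene model still to be tested experimentally on the opposite strand that covers 485 exonic bases of Pycard. Gm45205 was listed at 0.137 FPKM to 0.467 FPKM, far below Pycard.

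**Figure D1:**
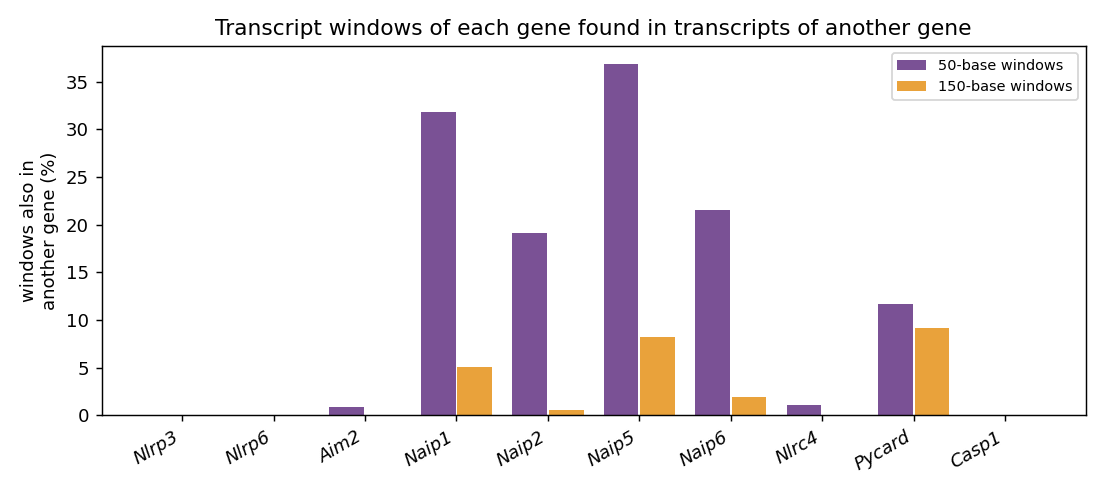
Share of 50-base and 150-base windows of the protein-coding transcripts of each gene (y axis, percent) that also occur in a transcript of another gene, with the genes on the x axis. The Naip genes hold the highest shares at 50 bases, from 19.1% in Naip2 to 36.9% in Naip5, and Pycard holds 11.7%.

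The stretches just upstream of the RefSeq starts of Naip1, Naip2 and Naip5 (RefSeq, GRCm38.p6) are shown because these neighbours also share promoter sequence. Capitals mark a run of 11 bases common to all of them and the longest run common to Naip2 and Naip5, of 34 bases. Other shared bases are in lower case, among them a short run of Naip1 that also occurs within the run of 34 bases. Each is given 5′ to 3′ on the minus strand, for Naip1 at chr13:100452875-100452984, for Naip2 at chr13:100202123-100202242 and for Naip5 at chr13:100247337-100247456.
Naip1: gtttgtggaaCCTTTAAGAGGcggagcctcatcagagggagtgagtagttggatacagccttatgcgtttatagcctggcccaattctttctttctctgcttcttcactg
Naip2: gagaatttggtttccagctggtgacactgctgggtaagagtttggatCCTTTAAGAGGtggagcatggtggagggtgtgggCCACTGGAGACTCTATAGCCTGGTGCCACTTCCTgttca
Naip5: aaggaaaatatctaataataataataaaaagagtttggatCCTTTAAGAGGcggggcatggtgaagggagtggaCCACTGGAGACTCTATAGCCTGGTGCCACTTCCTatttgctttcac
The longest run that the Naip6 window had in common with any of these was 9 bases, with Naip1. The Naip6 window (chr13:100316567-100316866) lies inside the GENCODE span of Naip6, and the Naip5 window lies beyond the GENCODE end of Naip5. The windows are thus not placed alike, and other starts were not compared.

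All 10 genes had a promoter window in the RefSeq table, and Nlrp3 had a pair of them. Each window of 300 bases was searched on both strands for 4 motifs. The interferon-stimulated response element, held by 3.44% of all 32851 windows, and the gamma-activated site (TTCNNNGAA), held by 8.3%, had no match in any of them. An AP-1 site (TGANTCA), held by 7.81% of all windows, was matched only in Nlrp6, at -140 from its start, and is in capitals in the stretch below (chr7:140920732-140920791, plus strand). An NF-kB site, held by 4.51% of all windows, was matched in Naip5 at -218 and in 1 Nlrp3 window at -186.
Nlrp6: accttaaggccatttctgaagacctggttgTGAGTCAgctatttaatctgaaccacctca

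Libraries differed within groups, which touches every comparison. DSS replicate 4 lay close to the mean of DSS replicates 1 and 2: among the 1116 protein-coding genes that averaged 30 FPKM or more, its log2 distance from that mean had a median of 0.049, where replicates 1 and 2 lay 0.21 apart. The same distance was 0.32 for DSS+DCA replicate 4, where DSS+DCA replicates 1 and 2 lay 0.75 apart. Among the inflammasome genes, Nlrc4 in DSS replicate 4 was 0.11% above the mean of the other DSS libraries, Naip6 0.141%, Casp1 0.367% and Pycard 1.32%. Farther above it were Naip1 at 4.45%, Aim2 at 5.52%, Naip2 at 18.1% and Nlrp3, near the floor, at 43.5%. Naip5 stood at -0.757% and Nlrp6 at -2.36% from it. The labels do not say whether DSS replicate 4 was prepared independently of DSS replicates 1 and 2. If it was not, n for DSS is below 3 and the DSS SDs, the SEs and the p-values given here are too small. The mitochondrial share of summed FPKM was 29.4% to 31.4% for DSS and for the first DSS+DCA library, and higher, at 47.6% and 46.7%, for DSS+DCA replicates 2 and 4. The label gives the cell type as intestinal epithelial cells. The 15 epithelial markers were present in every library, with a summed level of 7103 to 8546 FPKM in DSS and 6215, 3537 and 3864 FPKM in DSS+DCA replicates 1, 2 and 4. Smooth muscle markers summed to 40.5 to 662 FPKM in DSS and 90.4 to 1473 FPKM in DSS+DCA. T cell markers had higher fitted values with DCA in 7 of 7 tested genes (median log2 change 0.49), myeloid markers in 7 of 13 (median 0.13) and B and plasma cell markers in 5 of 6 (median 1.06), with none past the adjusted threshold in limma. At an unadjusted p under 0.05 were 4 T cell genes, 2 myeloid genes (Lyz2 higher and Cd14 lower) and 3 B and plasma cell genes. Of all genes tested, 16.7% had such a p in either direction. B and plasma cell markers summed to 6.44 to 28.3 FPKM in DSS and to 39.1, 6.15 and 43.9 FPKM in DSS+DCA replicates 1, 2 and 4. Neutrophil markers summed to 18.7 to 26.3 FPKM in DSS and to 19.4, 85.8 and 7.82 FPKM in DSS+DCA. Of this, Ly6g alone gave 13.7 to 18.6 FPKM in DSS and 15.7, 72.3 and 1.79 FPKM in DSS+DCA. S100a9, the next highest, was at 1.40 to 7.51 FPKM in DSS and 3.10, 6.25 and 3.37 FPKM in DSS+DCA. Goblet cell markers had lower fitted values in 10 of 10 (median log2 change -1.57, 7 at an unadjusted p under 0.05). Of these Agr2 and Retnlb fell by limma, calls that were lost without any 1 of the DSS libraries. In bulk tissue, fewer cells of a type and less RNA per cell cannot be told apart.

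FPKM counts fragments per unit of transcript length and of mapped fragments, so levels can be set beside each other across genes. In DSS, Pycard stood highest at 80.3 ± 0.619 FPKM (SD, n = 3, as for all group means here). Naip5 followed at 56.0 ± 8.32 FPKM, Casp1 at 49.1 ± 6.52 FPKM, Naip1 at 40.8 ± 5.19 FPKM and Nlrp6 at 31.7 ± 0.713 FPKM. Below them were Aim2 at 22.3 ± 2.75 FPKM, Naip6 at 21.7 ± 3.42 FPKM, Nlrc4 at 13.6 ± 2.17 FPKM and Naip2 at 7.55 ± 1.08 FPKM. Naip5 and Casp1, Casp1 and Naip1, and Aim2 and Naip6 overlapped between libraries, while the other neighbours in this order did not. Within each DSS library Naip5 still stood above Casp1 and Casp1 above Naip1, while Aim2 and Naip6 changed order. Nlrp3 was at 0.0711 ± 0.0292 FPKM, far under every other member.

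**Figure D2:**
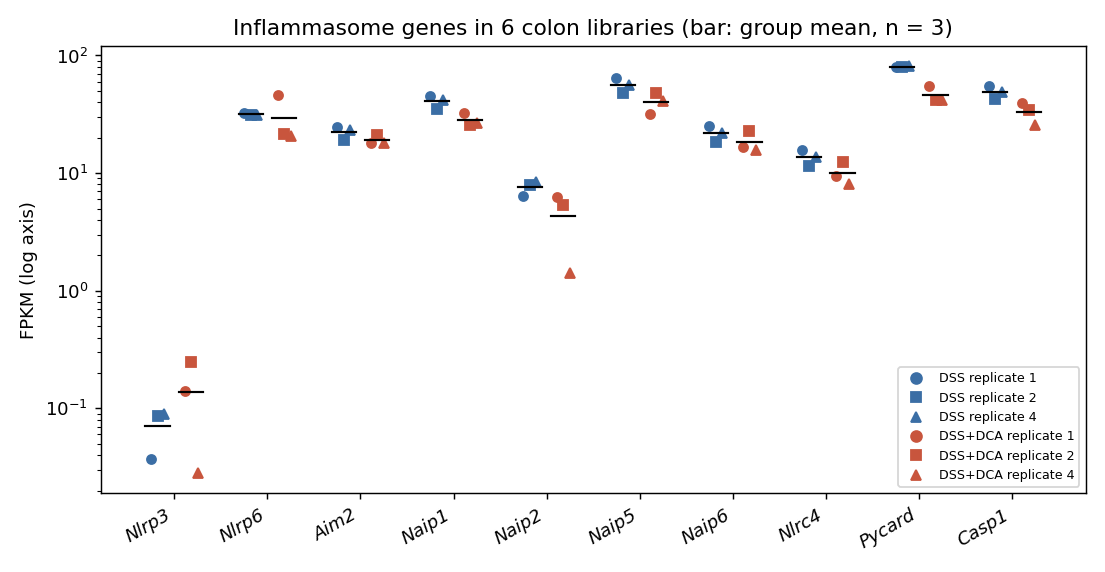
FPKM of the 10 genes (y axis, log scale) in 3 DSS and 3 DSS+DCA libraries, with 1 point for each library and a bar at the group mean. Nlrp3 lies under 0.25 FPKM in every library, and the DSS points of Pycard all lie above its DSS+DCA points.

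The comparison of DSS+DCA with DSS asks how the bile acid changes the inflamed colon. On the scale of log2(FPKM + 1), each of the 9 genes that reached a mean of 0.5 FPKM had a lower fitted value with DCA, where 60.5% of all 14611 tested genes did. With quantile normalization 6 of 9 were lower (52% of all genes), and with rescaling to protein-coding genes outside the mitochondrial genome 6 of 9 (25.1%). The rescaling divides a library by a single factor and so shifts all but low genes nearly alike. Centring on the epithelial markers shifts every gene alike and left 2 of 9 lower (9.23%). The median of the 9 minus that of all genes was -0.38 as deposited and with this centring, -0.26 with the rescaling and -0.12 with quantile normalization. None of the 9 passed an adjusted p under 0.05 in limma, where 0.561% of all genes did and 0.431% were called lower. At an unadjusted p under 0.05, 3 of 9 were lower (Pycard, Naip1 and Casp1), beside 12.4% of all genes. The median log2 change of the 9 was -0.47, beside -0.09 over all genes tested. In 4 of 9 the libraries of the groups did not overlap, with DSS higher, where 17.8% of all genes behaved this way, 5.8% the opposite way and 23.6% either way. These were Pycard, Casp1, Naip1 and Naip2. Without DSS replicate 4 the median stayed at -0.47 and 1 of 9 had an unadjusted p under 0.05, beside 9.66% of all genes in either direction. Without DSS+DCA replicate 1 the median was -0.58, beside -0.19 over all genes, and 5 of 9 had such a p, beside 28.3% of all genes. The epithelial markers were also lower with DCA. Within DSS+DCA their mean was 7.92, 7.10 and 7.25 log2 units in replicates 1, 2 and 4. Naip5, Naip6, Nlrc4 and Aim2 were higher in DSS+DCA replicate 2 than in replicate 1, and Pycard, Casp1, Naip1, Naip2 and Nlrp6 were lower. The part of the markers in the result was not tested beyond the values relative to them given.

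The adaptor Pycard had the smallest p of the 9. It lies on chromosome 7 from 127989708 to 127993867 (GRCm38, GENCODE M21, minus strand). It measured 79.8, 80.0 and 81.0 FPKM in DSS replicates 1, 2 and 4 and 54.8, 41.6 and 41.7 FPKM in DSS+DCA replicates 1, 2 and 4. The DSS libraries were nearly equal, every DSS+DCA library lay below them, and DSS+DCA replicate 1 lay between. The group mean went from 80.3 ± 0.619 to 46.0 ± 7.55 FPKM, 1.74-fold lower, with a log2 change of -0.80 ± 0.19 by limma (SE, with an adjusted p of 0.127). Without DSS replicate 4 the log2 change was -0.79 (adjusted p = 0.44, limma). Without DSS+DCA replicate 1 it was -0.93 (adjusted p = 0.0183, limma), which passed the threshold, as did 1246 of all 14611 genes tested. With a TMM-style scaling over all genes Pycard also passed (adjusted p = 0.0297, limma), as did 373 of the 14611. With the same scaling over the tested genes it did not (adjusted p = 0.0586, limma), where 132 genes did. Over 16 alternatives its adjusted p ran from 0.00112, with array weights that called 6227 genes, to 0.515. Its log2 change was negative in each but varied in size, from -0.93 to -0.14. It was -0.37 with quantile normalization, -0.36 with protein-coding rescaling and -0.14 with centring on the epithelial markers. In the authors' deposited table Pycard has a fold of 0.574 and a q-value of 0.0213, and it is not marked significant. Every gene that the authors' deposited table marks significant has a log2 fold of at least 1 in size.

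Casp1, the protease itself, lies on chromosome 9 from 5298517 to 5307265, on the plus strand. It measured 55.5, 42.5 and 49.2 FPKM in DSS replicates 1, 2 and 4 and 39.1, 34.4 and 25.7 FPKM in DSS+DCA replicates 1, 2 and 4. The groups did not overlap, but the gap between the lowest DSS and the highest DSS+DCA library was smaller than the SD of either group. The log2 change was -0.57 ± 0.22 by limma (SE, with an adjusted p of 0.275).

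Among the NAIP receptors, Naip1 and Naip2 separated the groups and Naip5 and Naip6 did not. Naip1 measured 45.3, 35.2 and 42.0 FPKM in DSS replicates 1, 2 and 4 and 32.3, 25.8 and 26.6 FPKM in DSS+DCA replicates 1, 2 and 4, for a log2 change of -0.52 ± 0.19 by limma (SE, with an adjusted p of 0.259). Naip2, the lowest of the family, measured 6.34, 7.89 and 8.41 FPKM in DSS and 6.28, 5.32 and 1.41 FPKM in DSS+DCA, in the same order of replicates. Its groups all but touched, at DSS replicate 1 and DSS+DCA replicate 1, and DSS+DCA replicate 4 lay far below the rest. The log2 change of Naip2 was -0.82 ± 0.41 by limma (SE, with an adjusted p of 0.362) and shrank to -0.33 without DSS+DCA replicate 4.

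The flagellin receptors overlapped between groups, with DSS+DCA replicate 2 high in both. Naip5 measured 64.4, 47.8 and 55.7 FPKM in DSS and 32.0, 48.3 and 40.9 FPKM in DSS+DCA, and its log2 change was -0.47 ± 0.22 by limma (SE, with an adjusted p of 0.338). Naip6 measured 25.2, 18.3 and 21.8 FPKM in DSS and 16.6, 22.9 and 15.6 FPKM in DSS+DCA, with a log2 change of -0.24 ± 0.22 by limma (SE, with an adjusted p of 0.603). In DSS+DCA replicate 2 both lay within the DSS range. The difference between Naip1 and Naip5 or Naip6 in their response was not tested.

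Summed over the family, the 4 NAIP receptor genes came to 141.3, 109.2 and 127.9 FPKM in DSS and 87.1, 102.3 and 84.5 FPKM in DSS+DCA. On FPKM as deposited the groups did not overlap, with DSS higher, as in 17.8% of all tested genes. Nuclear protein-coding genes made up 20.9% and 24.2% of summed FPKM in DSS+DCA replicates 2 and 4, against 44.8% to 46.0% in the other libraries. With the protein-coding rescaling the log2 changes were -0.079 for Naip1, -0.46 for Naip2, -0.029 for Naip5 and 0.19 for Naip6. Relative to the epithelial markers of the same library, the groups overlapped for each of the 4 genes. The separation of the sum is thus given for FPKM as deposited only, and the sum was not tested under another scaling. Within the sum, Naip5 held 43.5% to 45.6% of the DSS level, and with DCA it held 36.7% in replicate 1, 47.2% in replicate 2 and 48.4% in replicate 4. Naip1 held 32.1% to 32.9% in DSS, and 37.1%, 25.2% and 31.5% in DSS+DCA. Naip6 held 16.8% to 17.8% in DSS and 18.5% to 22.4% in DSS+DCA, without overlap. By FPKM, 23.6% of all tested genes did not overlap, in either direction. Naip2 held 4.49% to 7.23% and 1.67% to 7.21%. All of these shares rest on the uncertain split of signal within the family. The shares of Naip1 and Naip5 in DSS+DCA lay on both sides of the DSS values.

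Nlrc4, the partner through which every NAIP signals, lies on chromosome 17 from 74425438 to 74459142. It measured 15.8, 11.4 and 13.6 FPKM in DSS and 9.40, 12.4 and 8.10 FPKM in DSS+DCA. As in Naip5 and Naip6, DSS+DCA replicate 2 fell inside the DSS range. The log2 change was -0.42 ± 0.21 by limma (SE, with an adjusted p of 0.364). The summed NAIP level was 8.95 to 9.54 times that of Nlrc4 in DSS, and 9.27, 8.29 and 10.4 times in DSS+DCA replicates 1, 2 and 4, a ratio whose DSS range falls inside its DSS+DCA range.

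Aim2, on chromosome 1 from 173350879 to 173466040, overlapped between the groups. It measured 24.5, 19.2 and 23.1 FPKM in DSS and 17.9, 21.3 and 18.1 FPKM in DSS+DCA, with DSS+DCA replicate 2 again inside the DSS range. Its log2 change was -0.21 ± 0.18 by limma (SE, with an adjusted p of 0.581). It was 0.10, 0.22 and 0.45 with quantile normalization, protein-coding rescaling and centring on the epithelial markers. The last is a shift common to all genes, and the rescaling is nearly so for all but low genes.

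Nlrp6, on chromosome 7 from 140920902 to 140929192, was spread widely over the DSS+DCA libraries. It measured 32.5, 31.4 and 31.2 FPKM in DSS, and 46.0, 21.3 and 20.5 FPKM in DSS+DCA replicates 1, 2 and 4. The DSS libraries were close together, and 1 DSS+DCA library lay above them and the others below. The log2 change was -0.21 ± 0.32 by limma (SE, with an adjusted p of 0.768). Without DSS+DCA replicate 1 it was -0.58 (adjusted p = 0.0389, limma), a setting in which 1246 of all 14611 genes tested passed. With the protein-coding rescaling the log2 change of Nlrp6 turned to 0.22. The libraries with low Nlrp6 were those with 47.6% and 46.7% mitochondrial transcripts and the lower epithelial marker sums, and the part of these in the result was not tested.

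Nlrp3, on chromosome 11 from 59541568 to 59566956, was barely detected. It measured 0.0374, 0.0868 and 0.0891 FPKM in DSS and 0.141, 0.247 and 0.0282 FPKM in DSS+DCA. The steps between low values of the table gave a rough estimate of 2 to 15 fragments for Nlrp3 in a library, and its groups overlapped. It was below the filter, and with no filter its log2 change was 0.08 (adjusted p = 0.627, limma). NLRP3 is known mainly from macrophages and other myeloid cells. The 15 myeloid markers were all above 0 in each library, summing to 85.0 to 94.2 FPKM in DSS and 88.3 to 113 FPKM in DSS+DCA, and the leukocyte gene Ptprc measured 0.142 to 0.361 FPKM in DSS and 0.211 to 0.809 FPKM in DSS+DCA.

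**Figure D3:**
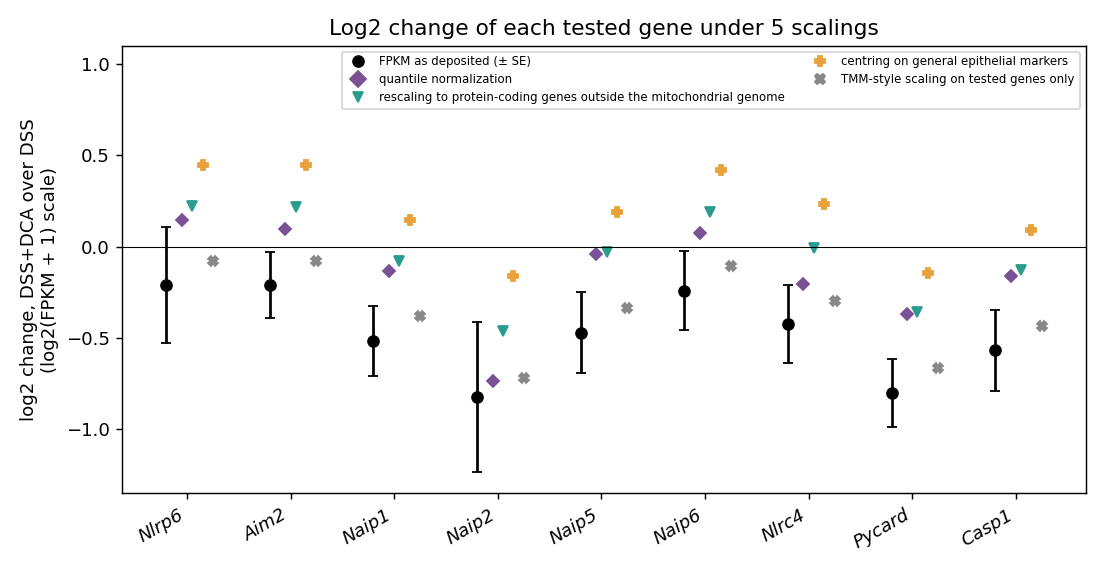
Log2 change of DSS+DCA over DSS (y axis, log2(FPKM + 1) scale) for the 9 tested genes, as deposited with its SE and under 4 other scalings. As deposited all 9 lie below 0. Nlrp6, Aim2 and Naip6 lie above 0 with quantile normalization, protein-coding rescaling and epithelial centring, Nlrc4, Naip1, Naip5 and Casp1 with epithelial centring alone, and Pycard and Naip2 stay below 0 under each scaling drawn.

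Each gene was then set against the epithelium of its own library, as the difference between its log2(FPKM + 1) and the mean of the 15 epithelial markers. The markers themselves were lower with DCA, 13 of 15 by fitted value, with 0 past the adjusted threshold in limma. At an unadjusted p under 0.05 were 9 of them, beside 16.7% of all genes, and their median log2 change was -0.80. The median of the inflammasome genes lay nearer to 0 than that. Relative to the markers, Pycard was at -1.74 ± 0.0794 in DSS and -1.88 ± 0.221 in DSS+DCA, a difference of -0.14 in overlapping groups (exact permutation p = 0.4, two-sided). Casp1 was at -2.45 ± 0.112 and -2.36 ± 0.35, a difference of 0.09 (exact permutation p = 0.9). With 3 libraries in each group the smallest p this test can give is 0.1. Of the 4 genes that had separated the groups, none did so on this scale.

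Nlrp6 was the 1 of 9 that separated the groups relative to the epithelial markers, at -3.06 ± 0.0644 in DSS and -2.61 ± 0.229 in DSS+DCA, a difference of 0.45 (exact permutation p = 0.1). This was higher with DCA, as in 51.1% of all tested genes on the same scale (1.64% were lower without overlap), so it does not set Nlrp6 apart. Naip6 and Aim2 were also higher on average, by 0.42 and 0.45, with overlapping groups. On this scale DSS+DCA replicate 1 stood below the other DSS+DCA libraries for every tested gene except Nlrp6 and Naip2. Its epithelial marker mean of 7.92 log2 units was near the 8.00 to 8.15 of DSS, against 7.10 and 7.25 in DSS+DCA replicates 2 and 4.

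**Figure D4:**
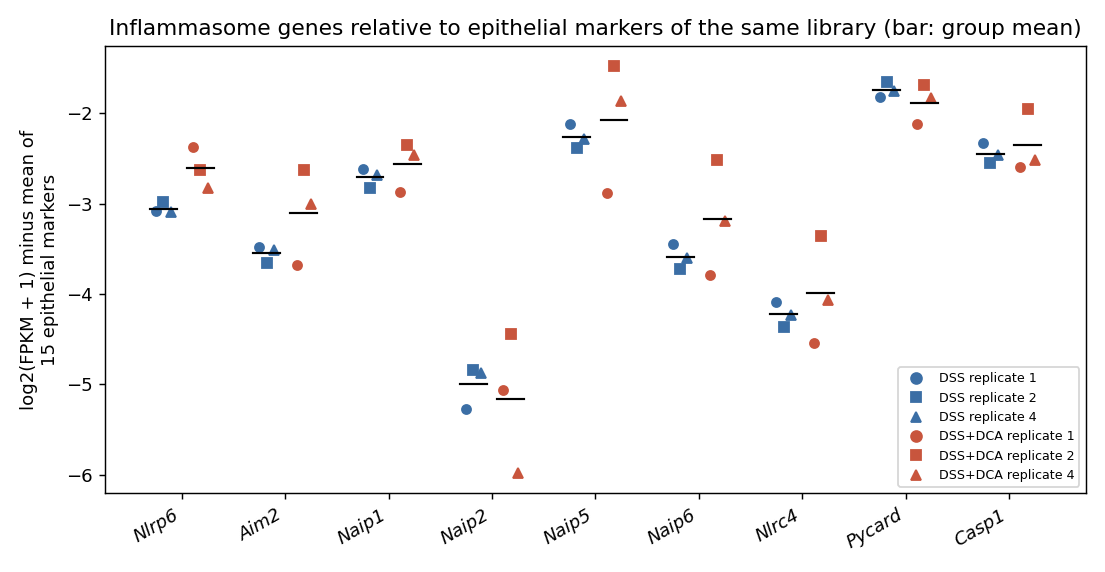
Difference between log2(FPKM + 1) of each gene and the mean of 15 epithelial markers in the same library (y axis, log2 units), with 1 point for each library and a bar at the group mean. The groups overlap for 8 of the 9 genes, and Nlrp6 lies higher in each DSS+DCA library.

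The genes around the core pathway were described from lists, with no test of a list. Counts at an unadjusted p under 0.05 stand beside 16.7% of all genes tested, in either direction. Of 10 tested caspases and effectors, 1 fell and 9 did not pass (0.561% of all genes passed), 5 had an unadjusted p under 0.05, with a median log2 change of -0.38. The one was Il18, the caspase-1 substrate made by epithelium, at 92.2, 51.8 and 66.5 FPKM in DSS and 12.8, 19.4 and 13.8 FPKM in DSS+DCA (limma, log2 change -2.105 ± 0.27 SE with an adjusted p of 0.0347). All of its DSS+DCA libraries lay well below every DSS library. The Il18 call was lost without DSS replicate 1, 2 or 4 (adjusted p = 0.154, 0.0758 and 0.172, limma) and without DSS+DCA replicate 4 (0.12). It was also lost with the replicate number as a block (0.182), no filter (0.118) and quantile normalization (0.0964). Protein-coding rescaling (0.0779) and TMM-style scaling over tested genes (0.0557) lost it too. The log2 change of Il18 stayed between -1.45 and -2.3 over all alternatives. Il1b, the other classical substrate, measured 0.643 to 2.59 FPKM in DSS and 1.61 to 3.27 FPKM in DSS+DCA (adjusted p = 0.725, limma), and Gsdmd, the pore protein, 99.0 to 121 FPKM and 70.5 to 123 FPKM (adjusted p = 0.597, limma). Both overlapped between groups. Casp4, which encodes mouse caspase-11, a sensor of cytosolic lipopolysaccharide, had a log2 change of -0.88 ± 0.26 by limma (SE, with an adjusted p of 0.189). Il33, an alarmin that needs no caspase-1, was at 0.467 ± 0.108 FPKM in DSS and 2.101 ± 0.925 FPKM in DSS+DCA (adjusted p = 0.116, limma).

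None of the 6 tested genes among other sensors and NLR relatives passed in limma, and 2 had an unadjusted p under 0.05. Fitted values were lower for all 6 (median log2 change -0.51). Nlrp9b, a sensor of viral RNA in mouse intestinal epithelium, measured 69.3, 44.1 and 57.0 FPKM in DSS and 24.5, 59.4 and 36.3 FPKM in DSS+DCA (adjusted p = 0.447, limma). It shared with Naip5, Naip6, Nlrc4 and Aim2 a value inside the DSS range in DSS+DCA replicate 2. Nlrx1, an NLR of mitochondria, and Nlrc5, a transactivator of MHC class I genes, had log2 changes of -0.72 ± 0.25 and -0.74 ± 0.28 by limma (SE, with an adjusted p of 0.239 and 0.272). Mefv, Nlrc3, Nlrp10, Nlrp12 and Nlrp1a were below the filter, and Naip7 was not matched by name.

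Upstream of NLRP3, none of 10 tested genes passed in limma, with 3 at an unadjusted p under 0.05, 6 lower and 4 higher, and a median log2 change of -0.11. Kcnk6, a potassium channel of the NLRP3 trigger, was at 10.2, 12.0 and 11.6 FPKM in DSS and 6.07, 3.54 and 4.15 FPKM in DSS+DCA (limma, log2 change -1.16 ± 0.21 SE with an adjusted p of 0.0778). Its groups stood well apart. Casp8 and Ripk3, proteins of cell death complexes, had log2 changes of -0.75 ± 0.26 and -0.98 ± 0.35 by limma (SE, with an adjusted p of 0.242 and 0.245). Nek7, the kinase that licenses NLRP3, measured 2.92 to 3.40 FPKM in DSS and 3.81 to 6.55 FPKM in DSS+DCA (adjusted p = 0.362, limma), with every DSS+DCA library above every DSS library.

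In the priming pathway, none of 13 tested genes passed in limma, with 3 at an unadjusted p under 0.05, 8 lower and 5 higher, and a median log2 change of -0.33. Ly96 and Cd14, partners of the lipopolysaccharide receptor TLR4, had log2 changes of -0.58 ± 0.17 and -0.96 ± 0.39 by limma (SE, with an adjusted p of 0.181 and 0.287), and Ticam1, a Toll-like receptor adaptor, of -0.54 ± 0.22 by limma (SE, with an adjusted p of 0.296). Of 8 tested genes listed as inhibitors none passed in limma, with 3 at an unadjusted p under 0.05 and a median log2 change of -0.54. Among them Tnfaip3, which encodes the NF-kB inhibitor A20, had a log2 change of -1.06 ± 0.26 by limma (SE, with an adjusted p of 0.142), and Serpinb1a, a serine protease inhibitor, of -0.88 ± 0.34 by limma (SE, with an adjusted p of 0.274). Card10, a scaffold that promotes NF-kB signalling rather than inhibiting it, had a log2 change of -0.61 ± 0.17 by limma (SE, with an adjusted p of 0.179). Of the 7 tested interferon-induced helpers none passed in limma and 1 had an unadjusted p under 0.05, with a median log2 change of -0.39. Gbp3, a guanylate-binding protein, was at 26.8 ± 2.21 FPKM in DSS and 12.0 ± 7.85 FPKM in DSS+DCA (adjusted p = 0.197, limma), and the transcription factor gene Irf1 had a log2 change of -0.39 (adjusted p = 0.464, limma).

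**Figure D5:**
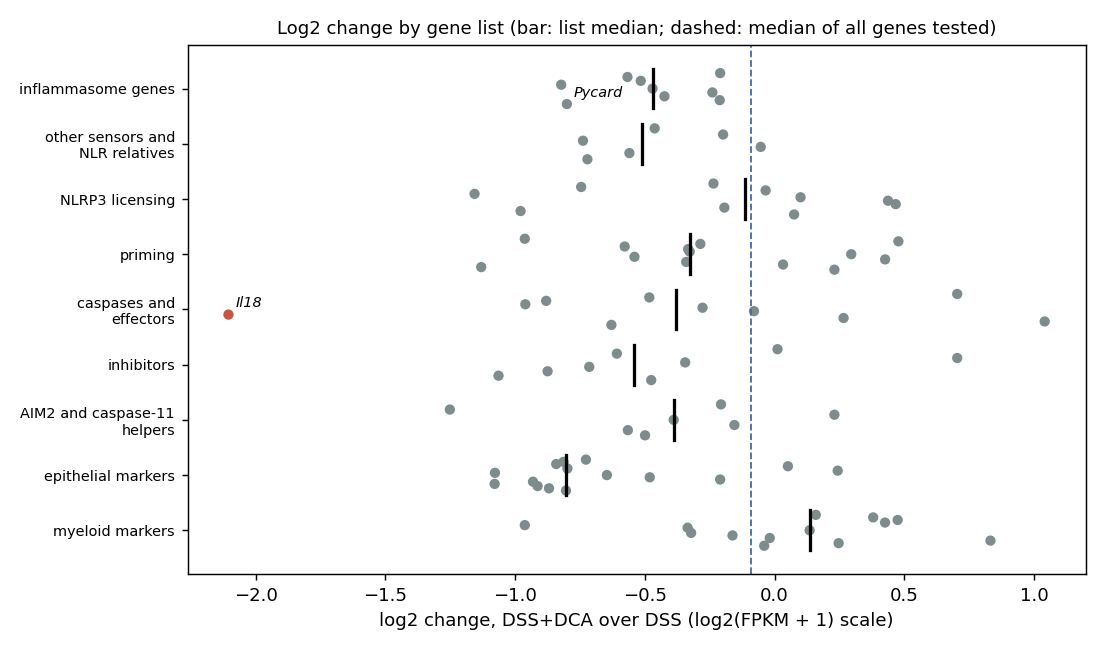
Log2 change of DSS+DCA over DSS (x axis, log2(FPKM + 1) scale) for each tested gene of 9 lists (y axis), with a black bar at the list median and a dashed line at the median of all genes tested. Il18 is the only gene drawn in red, the colour for an adjusted p under 0.05, and the inflammasome median of -0.47 lies between the epithelial marker median of -0.80 and the overall median of -0.09.

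The annotation deposited with the table places 137 tested genes, the 9 included, in NOD-like receptor signalling. This set was added after the data had been seen. Without the 9, 92 of 128 genes were lower and 36 higher, with a median log2 change of -0.21. In limma 2 of the 128 were called lower and 1 higher, beside 0.561% of all genes called in either direction. The gene called higher, not named here, had the smallest p of the set. Those called lower were Il18 and Oas2, an oligoadenylate synthetase, whose call was likewise lost without any 1 of the DSS libraries.

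For the 3 genes of highest mean level, the protein-coding genes with the nearest pattern over the 6 libraries were found among 5332 that averaged 5 FPKM or more, by the root mean square difference of centred log2 values. For Pycard these included Ahsa1, a cochaperone of HSP90 (difference 0.046), and Nfkbia, an inhibitor of NF-kB (0.0483). For Casp1 they were Cpne2 (0.0362), BC016579 (0.0519) and Net1 (0.0575), and for Naip5 they were Ptpn18 (0.0637), Myo19 (0.0684) and Eps8l3 (0.0738).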

How the data were processed

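The 6 libraries are bulk RNA-seq of mouse colon. The authors' table gives FPKM per gene, per the file headers, with no stated scaling between libraries. Named with no role, per the submitters' processing notes, are StringTie 2.1.6, HISAT2 2.2.1, cutadapt 1.9, edgeR and DESeq2; the sources used here do not give the build or strand use. A fold (ratio of DSS+DCA over DSS), its log2, and p-values and q-values are also deposited, per the file headers, and were used only where named.

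Genes that averaged 0.5 FPKM or more were tested as log2(FPKM + 1) with limma 3.58.1 in R 4.3.3 (eBayes with trend, two-sided, no covariates), with Benjamini-Hochberg adjustment over all 14611. Log2 changes understate the change of low genes. From the steps among low values, depth was estimated at 1.55e+07 to 1.87e+07 fragments per library. Only 29.1% to 35.7% of low values were within 0.05 of a whole number (chance gives 10%), so no count test was run. Low values rest on few fragments, which limits their precision. On simulated data for this comparison (14611 genes, 200 changed, 5 runs) the fit recovered 19% of genes changed by 1 log2 unit and 71.2% of those changed by 2.

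All members are named. From each further list the text names genes that passed, up to 3 more of smallest p, and Il18, Il1b, Gsdmd, Casp4 and Nek7. A few genes that this rule selects are not reported here. Members and lists were chosen with earlier results of these data known. Alternatives were another pseudocount, other filters, other scalings, array weights, a replicate block, an adjusted threshold of 0.1 and leaving out each library. The TMM-style scaling over tested genes was added after seeing the data. Values relative to the epithelial markers were compared by exact permutation.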

Additional observations from a re-analysis of the deposited data

How the results depend on the processing

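Against 82 calls (19 higher, 63 lower), limma called 2 with no filter, 373 with TMM-style scaling (44 higher, 329 lower), 132 with that scaling over tested genes only, which was chosen after seeing the data, 4016 with centring on the epithelial markers (3918 higher, 98 lower), 6227 with array weights and 230 at an adjusted p under 0.1. The protein-coding rescaling called 123, with 78 higher and 45 lower. Leaving out 1 library gave 0 to 1246 calls: 0 without DSS replicate 1 (1503 at an unadjusted p under 0.05), 17 without DSS replicate 2, 0 without DSS replicate 4 (1412 unadjusted), and 1246, 171 and 10 without DSS+DCA replicates 1, 2 and 4. Of the inflammasome genes, 1 was called with TMM-style scaling (Pycard), 9 with array weights, and 0 to 2 with 1 library left out, the 2 being Pycard and Nlrp6 without DSS+DCA replicate 1. Array weights gave 8.08 to DSS replicate 4, which lies near the mean of the other DSS libraries, and 0.152 to DSS+DCA replicate 1. The members' median of -0.47 became -0.13 with quantile normalization, -0.029 with protein-coding rescaling and 0.19 with epithelial centring, settings that moved the median of all genes from -0.09 to -0.02, 0.23 and 0.57. In that order, Nlrp6 turned to 0.15, 0.22 and 0.45, Naip6 to 0.075, 0.19 and 0.42, and Aim2 to 0.10, 0.22 and 0.45. With epithelial centring, which shifts every gene alike, Nlrc4 turned to 0.24, Naip1 to 0.14, Naip5 to 0.19 and Casp1 to 0.093. Protein-coding rescaling divides all genes of a library by a single factor, so it also shifts all but low genes nearly alike. The cause of the turns with quantile normalization was not tested. Leaving out 1 library gave medians of -0.58 to -0.33. Relative to the epithelial markers, leaving out 1 library gave -0.079 to 0.51 for Nlrc4, -0.52 to 0.25 for Naip2, -0.11 to 0.59 for Naip5 and -0.11 to 0.21 for Casp1. These turned sign without DSS+DCA replicate 2, or for Naip2 without DSS+DCA replicate 4. With the replicate number as a block, limma called 1 gene and none of the 9 (1 at an unadjusted p under 0.05, beside 12.6% of all genes). The labels do not say that a number pairs libraries, and deviations of same-numbered libraries correlated at -0.14, -0.17 and 0.02.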
